A study of Mus musculus with 4 samples.

Results

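The proteasome genes of liver group 1 innate lymphoid cells (ILC1s) were examined in Cd200r knockout and WT mice. Members were taken by symbol as proteasome subunits, activators, assembly chaperones and the inhibitor (Psma, Psmb, Psmc, Psmd, Psme, Psmf and Psmg genes followed by a number), leaving out pseudogenes and genes whose level averaged under 1 FPKM over all 4 libraries. FPKM is a fragment count scaled to the length of the gene and to the total of the library. Of 47 symbols matched, 46 passed. The deposited table lists 18804 genes, of which 9476 reached that minimum and were tested. The member just inside this minimum was Psme4, at a mean of 1.12 FPKM, and the symbol outside it was Psma8, listed at 0 in all 4 libraries.

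The data are RNA-seq of ILC1s, tissue-resident lymphocytes related to natural killer (NK) cells that make interferon-gamma and carry cytotoxic granules. There were 2 Cd200r knockout libraries (replicates 1 and 2) and 2 WT libraries (replicates 1 and 3), all from livers of untreated mice at homeostasis, aged 5 to 8 weeks. Cd200r encodes the inhibitory receptor CD200R, and the title of the series relates it to ILC1 cytotoxicity. The labels give no strain, allele or sorting gate, and do not say whether a library came from 1 mouse or a pool, so the spread behind every p-value here is that between libraries, and may be technical.

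Proteasomes are barrel-shaped proteases that degrade proteins tagged with ubiquitin and supply most peptides shown on MHC class I. The 20S core has outer rings of alpha subunits, which form the gate, and inner rings of beta subunits, among which Psmb5, Psmb6 and Psmb7 carry the chymotrypsin-like, caspase-like and trypsin-like active sites. Lymphocytes and interferon-exposed cells replace these with Psmb8, Psmb9 and Psmb10 to form the immunoproteasome, each taking the place of its own counterpart (Psmb8 of Psmb5, Psmb9 of Psmb6, Psmb10 of Psmb7). The 19S particle, a base with a ring of ATPases and a lid, recognises and unfolds tagged proteins, while PA28, made of Psme1 and Psme2, is an interferon-inducible cap that opens the gate without ubiquitin.

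Sequences at the starts of 4 genes are shown because factors known to act on interferon-inducible or constitutive proteasome genes bind motifs of the kinds searched here. They are RefSeq sequences of the GRCm38.p6 assembly, printed 5′ to 3′ on the strand of the first gene named, with motif matches in capitals. Psmb9 and Tap1, the peptide transporter gene, are transcribed away from each other, and the first line is the whole stretch between their RefSeq starts (chr17:34187331-34187555, minus strand), with a CCAAT box read on the other strand. The second is the 250 bases before Psmb8 (chr17:34197945-34198194, plus strand), with a gamma-activated site (TTCNNNGAA). The third is the 250 bases before Psmb5 (chr14:54617996-54618245, minus strand), with the core of an antioxidant response element (TGACNNNGC). The last is 30 bases at the start of Psme1 (chr14:55578493-55578522, plus strand), nearly all inside the gene, with an interferon-stimulated response element (GAAA, NN, then GAAA) read on the other strand.
Psmb9 to Tap1: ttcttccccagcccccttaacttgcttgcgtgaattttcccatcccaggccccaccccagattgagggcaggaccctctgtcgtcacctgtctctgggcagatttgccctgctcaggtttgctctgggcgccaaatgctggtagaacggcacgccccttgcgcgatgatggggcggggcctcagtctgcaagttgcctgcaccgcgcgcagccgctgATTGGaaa
Psmb8: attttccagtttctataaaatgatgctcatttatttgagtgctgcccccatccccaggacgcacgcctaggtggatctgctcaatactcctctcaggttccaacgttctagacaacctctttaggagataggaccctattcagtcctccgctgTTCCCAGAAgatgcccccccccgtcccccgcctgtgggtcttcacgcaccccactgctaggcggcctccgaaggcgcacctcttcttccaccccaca
Psmb5: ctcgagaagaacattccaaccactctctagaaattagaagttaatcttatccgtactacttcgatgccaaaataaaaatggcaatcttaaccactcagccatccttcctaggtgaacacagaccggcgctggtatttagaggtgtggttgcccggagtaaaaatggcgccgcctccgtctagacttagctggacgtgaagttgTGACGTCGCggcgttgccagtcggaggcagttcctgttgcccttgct
Psme1: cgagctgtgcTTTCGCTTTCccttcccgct

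The motifs were spread over members of different roles. Windows of 250 bases before to 50 after a start were given for 39 of the 46 members and searched on both strands. The interferon-stimulated response element occurred in 5 of 39 members (12.8%, against 3.99% of all 27025 genes with a window), of which 1, Psme1, belongs to the interferon-inducible subunits, the others being Psmb3, Psmd4, Psmd9 and Psmg4. The gamma-activated site occurred in Psmb8, Psmd2 and Psmg1 (7.69%, against 9.55% of all genes). The antioxidant response element core, the kind of site read by the factor NRF1 that drives proteasome genes, occurred in 6 members including Psmb5 and Psmb6 (15.4%, against 14.0%). The CCAAT box occurred in 13 members including Psmb9 (33.3%, against 41.1%). A match is a run of letters and not a bound site.

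The libraries were alike in depth, and markers of some other cell types differed between the genotypes. From the step between low values, 1 FPKM was inferred to stand for about 39.1 to 41.1 counted reads per kilobase in each library. Cd200r1 was measured at 111 and 104 FPKM in knockout and at 162 and 173 FPKM in WT libraries, without overlap, and was lower in knockout (log2 fold change −0.64, SE 0.09, limma adjusted p = 0.00451), so the transcript was reduced and not absent. All 13 ILC1 markers measured were detected in every library, from Gpr183 at 5.80 to 14.8 FPKM to Xcl1 at 1758 to 2590 FPKM, with Ncr1 at 1486 to 1748 and Itga1 at 32.8 to 53.0 FPKM. Among them Gpr183 and Tmem176b were higher in knockout (limma adjusted p = 0.00665 and 0.0365). Both knockout libraries also lay above both WT libraries for Il7r, Rgs1, Cd69 and Tmem176a (24.3% of all tested genes did). They lay below for Itga1, Ncr1, Klrb1c and Xcl1 (21.7% of all tested genes). None of these passed the test, and their log2 fold changes ran from −0.43 (Itga1) to 0.51 (Rgs1). Of 10 tested macrophage markers 7 were higher in knockout (summed level of 13 genes 641 and 955 FPKM in knockout, 246 and 226 in WT), as were 10 of 12 conventional NK markers (309.5 and 665 in knockout, 113 and 110 in WT), while all 7 erythroid markers were lower (12480 and 14030 in knockout, 24710 and 26810 in WT). Of 13 mitochondrially encoded genes, whose share can move with RNA quality, 11 were higher in knockout (summed level 12830 and 15140 FPKM in knockout, 6697 and 8481 in WT). The T cell, B cell and hepatocyte lists, with 5, 3 and 5 markers tested, had 0 called in either direction. Of all tested genes 2.4% were called higher and 0.939% lower in knockout. No list of these other cells has a marker at 0 in all 4 libraries. In such bulk libraries fewer cells of a type and less RNA per cell cannot be told apart.

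Immunoproteasome genes held most of the catalytic subunit FPKM in both genotypes. Psmb8, the immunoproteasome counterpart of Psmb5, was the most abundant of the 46 members, within the top 0.559% of all tested genes by mean level. It measured 1106 and 1184 FPKM in knockout libraries and 1032 and 1111 FPKM in WT libraries. Psmb5 measured 159 and 156 FPKM in knockout and 170.0 and 164 FPKM in WT. Every library thus had a higher FPKM for Psmb8 than for Psmb5. The genotypes overlapped for Psmb8 but not for Psmb5, which was lower in both knockout libraries.

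The trypsin-like pair showed a similar excess. Psmb10 measured 271 and 259 FPKM in knockout and 289 and 274 FPKM in WT, and Psmb7 50.2 and 49.5 FPKM in knockout and 41.2 and 44.1 FPKM in WT. For the caspase-like pair the order was turned round, with the constitutive gene above the immunoproteasome one in every library. Psmb9 measured 189 and 196 FPKM in knockout and 206 and 190.0 FPKM in WT, whereas Psmb6 measured 320.4 and 367 FPKM in knockout and 273 and 289 FPKM in WT. Ordered by mean FPKM, the 6 catalytic genes ran Psmb8, Psmb6, Psmb10, Psmb9, Psmb5 and Psmb7. The ranges of Psmb6 and Psmb10 over the 4 libraries overlapped, and no other neighbours in that order did. Orders, ratios and shares that compare different genes depend on the gene lengths used for FPKM, which were not checked for these genes. Summed over the 6 genes, Psmb8, Psmb9 and Psmb10 gave 74.7% and 74.2% of the FPKM in knockout and 75.9% and 76.0% in WT.

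No catalytic subunit passed the test between genotypes. Groups were compared with limma on log2(FPKM + 1) over all 9476 genes, two-sided, with Benjamini-Hochberg adjustment and a threshold of 0.05; each log2 fold change is the knockout mean minus the WT mean on that scale. The log2 fold change was 0.10 for Psmb8 (SE 0.08, adjusted p = 0.628), −0.04 for Psmb9 (SE 0.09, adjusted p = 0.897) and −0.09 for Psmb10 (SE 0.08, adjusted p = 0.687). Their 95% intervals ran from 0.944 to 1.21-fold, 0.853 to 1.12-fold and 0.829 to 1.07-fold, so changes beyond those sizes lay outside them. Psmb6 had the smallest p of the catalytic genes, with 343 ± 32.6 FPKM in knockout and 281 ± 11.1 FPKM in WT (SD, n = 2 each). Its log2 fold change was 0.28 (SE 0.09, limma adjusted p = 0.149). Psmb7 had 0.22 (SE 0.11, adjusted p = 0.372) and Psmb5 −0.08 (SE 0.09, adjusted p = 0.703).

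**Figure D1:**
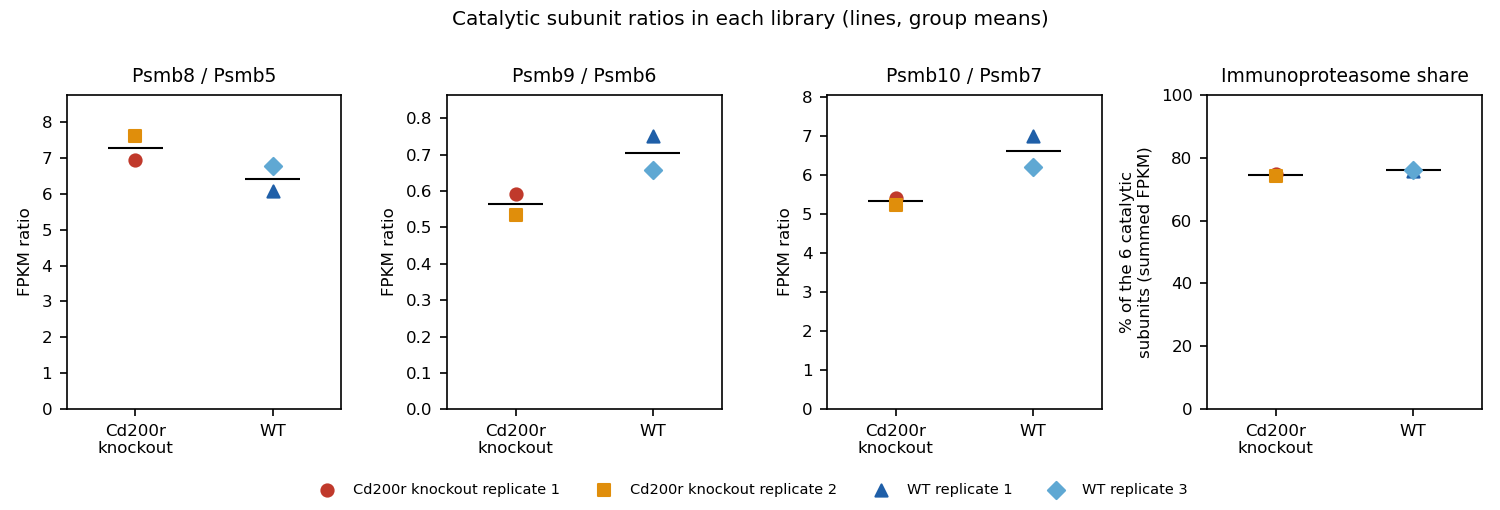
FPKM ratio of each immunoproteasome subunit to the constitutive subunit it replaces, and the share of Psmb8, Psmb9 and Psmb10 in the summed FPKM of the 6 catalytic subunits (in %), for each knockout and WT library; lines are group means of 2 libraries. The knockout points lie above WT for Psmb8 over Psmb5 and below WT for the other pairs, and the share is between 74.2% and 76.0% in all 4.

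The 3 exchange pairs had ratios that differed in opposite directions, without a test. The ratio of Psmb8 to Psmb5 was 6.94 and 7.61 in knockout and 6.07 and 6.77 in WT, higher in both knockout libraries. The ratio of Psmb9 to Psmb6 was 0.591 and 0.535 in knockout and 0.752 and 0.657 in WT, and that of Psmb10 to Psmb7 was 5.40 and 5.24 in knockout and 7.0 and 6.2 in WT, both lower in knockout. On the log2 scale the differences between genotypes were 0.18, −0.32 and −0.31. The mean log2(FPKM + 1) of Psmb8, Psmb9 and Psmb10 minus that of Psmb5, Psmb6 and Psmb7 was 1.47 ± 0.01 in knockout and 1.62 ± 0.05 in WT (SD, n = 2 each), a difference of −0.15. These ratios are given as descriptions and were not tested. With 2 libraries a group, even full separation could not take an exact two-sided permutation p below 0.333. Psmb5, Psmb6 and Psmb7 have pseudogenes, and how reads were divided between them is not given in the sources used. Without strand in the library, reads of overlapping genes cannot be told apart, and in GENCODE release M21 exons on the opposite strand cover 5.8% of Psmb9 (Tap1), 14.7% of Psmb8 (Gm20496) and 11.8% of Psmb7 (Nek6).

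The PA28 cap was abundant, and its genes had higher values in both knockout libraries without passing the test. Psme1, the alpha subunit, measured 354 and 349.5 FPKM in knockout and 316 and 306 FPKM in WT. Psme2, the beta subunit, measured 517 and 567 FPKM in knockout and 487 and 496 FPKM in WT. The genotypes did not overlap for either gene, where 24.3% of all tested genes had both knockout libraries above both WT libraries. Log2 fold changes were 0.18 for Psme1 (SE 0.08, adjusted p = 0.318) and 0.14 for Psme2 (SE 0.08, adjusted p = 0.462). Psme1 and Psme2 lie close together on chromosome 14, at 55578494 to 55581527 and 55587440 to 55591101. The ratio of Psme1 to Psme2 was 0.685 and 0.616 in knockout and 0.649 and 0.617 in WT. Psme2 has a near copy, Psme2b, which measured 137 and 148 FPKM in knockout and 122 and 121 FPKM in WT, and how reads were divided between them is not given in the sources used. Over all 5 interferon-inducible subunits the median log2 fold change was 0.10, with 3 positive and 2 negative. It was 0.22 over the 3 constitutive catalytic subunits and 0.14 over the 17 members of the 19S particle.

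The other activators differed widely in level. Psme3, which encodes the mostly nuclear PA28 gamma, measured 47.3 and 43.4 FPKM in knockout and 36.6 and 39.9 FPKM in WT (log2 change 0.24, SE 0.11, adjusted p = 0.354). The genotypes did not overlap. Psme4, which encodes PA200, measured 0.762 and 1.43 FPKM in knockout and 1.33 and 0.976 FPKM in WT, with overlap, and was the member with the lowest level. The inhibitor gene Psmf1, whose product PI31 binds the 20S core, measured 32.9 and 31.3 FPKM in knockout and 29.1 and 29.7 FPKM in WT (log2 change 0.12, SE 0.12, adjusted p = 0.688).

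**Figure D2:**
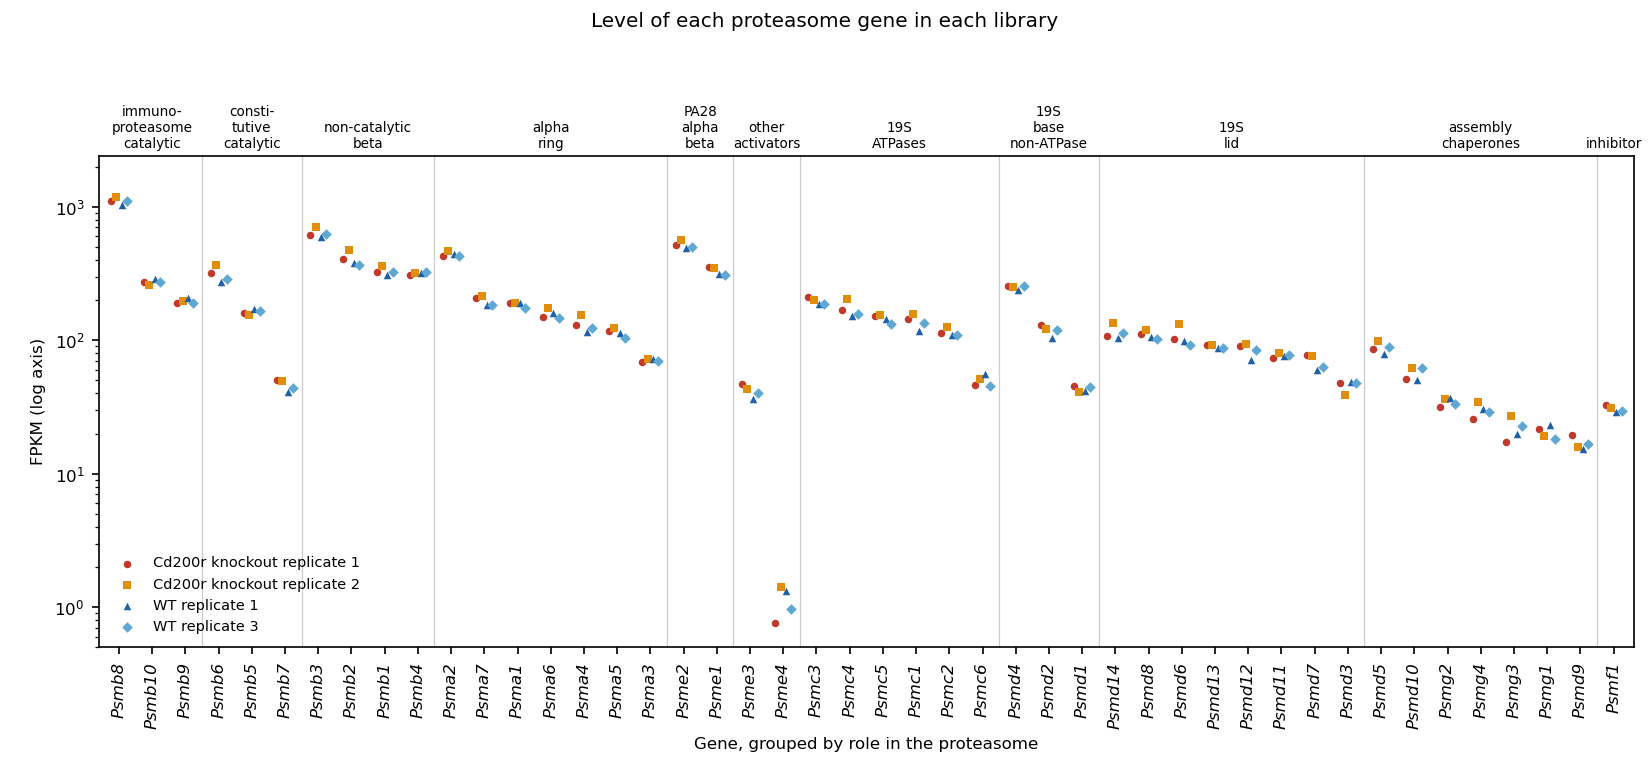
FPKM (log axis) of each of the 46 proteasome genes in the 2 knockout and 2 WT libraries, grouped by role and ordered by mean level within a group. Psmb8 stands highest, at 1032 to 1184 FPKM, Psme4 lowest, at 0.762 to 1.43 FPKM, and for most genes the spread between libraries is small beside the spread between genes.

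Subunits that share a ring were unequal in FPKM, a value that depends on the gene length used. Among the 4 non-catalytic beta subunits mean levels ran from 316 FPKM (Psmb4) to 634 FPKM (Psmb3), and among the 7 alpha subunits from 70.6 FPKM (Psma3) to 442 FPKM (Psma2). Alpha and beta subunits enter the 20S core in equal numbers. Psma2 measured 431 and 465 FPKM in knockout and 446 and 427 FPKM in WT, and Psma3 68.7 and 71.9 FPKM in knockout and 72.4 and 69.5 FPKM in WT, with overlapping genotypes for both. Log2 fold changes were 0.04 for Psma2 (adjusted p = 0.885) and −0.01 for Psma3 (adjusted p = 0.966). Psmb3 measured 612 and 706 FPKM in knockout and 595 and 622 FPKM in WT, and Psmb4 306.5 and 316 FPKM in knockout and 317 and 326 FPKM in WT.

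The smallest p among the structural 20S genes was that of Psmb2. It measured 407 and 478 FPKM in knockout and 376 and 367 FPKM in WT (log2 change 0.25, SE 0.09, adjusted p = 0.222). Among alpha subunits Psma4 came first, at 131 and 155 FPKM in knockout and 116 and 123 FPKM in WT (0.25, SE 0.10, adjusted p = 0.284). In both, the genotypes did not overlap and knockout replicate 2 stood highest. The whole 20S core, 17 genes, summed to 5040 and 5465 FPKM in knockout and 4891 and 4938 FPKM in WT.

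The 17 members of the 19S particle had a median level of 109.6 FPKM, against 197 FPKM over the 17 measured core genes. The 19S genes Adrm1 (mean 91.5 FPKM) and Sem1 (mean 310 FPKM) fall outside the symbol rule and are not counted there. Among the 6 ATPases, which unfold the substrate, levels ran from 49.7 FPKM (Psmc6) to 196 FPKM (Psmc3). Psmc3 measured 210 and 200 FPKM in knockout and 185 and 187 FPKM in WT, without overlap, and Psmc6 46.3 and 51.4 FPKM in knockout and 55.5 and 45.5 FPKM in WT, with overlap. Psmc1 had the smallest p of this ring, at 143 and 158 FPKM in knockout and 117 and 135 FPKM in WT (log2 change 0.26, SE 0.10, adjusted p = 0.256). Of the 6 ATPase genes 5 had knockout libraries above both WT libraries (24.3% of all tested genes did), and none passed the limma test (adjusted p from 0.256 to 0.913).

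The base also holds ubiquitin receptors and scaffolds. Psmd4, a receptor for ubiquitin chains, had the highest mean level of the 19S members. It measured 253 and 250.5 FPKM in knockout and 237 and 253 FPKM in WT (log2 change 0.04, SE 0.08, adjusted p = 0.873). Psmd1, a scaffold of the base, measured 45.5 and 40.6 FPKM in knockout and 41.7 and 44.7 FPKM in WT (−0.01, SE 0.11, adjusted p = 0.987). In both the genotypes overlapped. Psmd2, another scaffold that also binds ubiquitin, measured 130 and 122 FPKM in knockout and 103 and 119 FPKM in WT, without overlap (0.18, SE 0.10, adjusted p = 0.439).

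In the lid, Psmd7 had the largest positive log2 fold change of all members and Psmd3 the most negative. Psmd7, the partner of the deubiquitinase Psmd14, measured 77.7 and 75.8 FPKM in knockout and 60.3 and 63.2 FPKM in WT. It was 1.24-fold higher by group means (log2 fold change 0.31, SE 0.10, limma adjusted p = 0.147), with an interval from 1.06 to 1.44-fold and no overlap. Psmd3, a lid scaffold, measured 47.9 and 39.1 FPKM in knockout and 48.7 and 47.9 FPKM in WT (−0.16, SE 0.12, adjusted p = 0.607), so that its difference came mainly from knockout replicate 2. Without that library its log2 fold change was −0.01. Psmd14, which removes ubiquitin from the substrate, measured 107 and 134 FPKM in knockout and 104 and 113 FPKM in WT, with overlap (0.14, SE 0.12, adjusted p = 0.622). Psmd6 measured 102 and 132 FPKM in knockout and 99.1 and 91.95 FPKM in WT (0.28, SE 0.12, adjusted p = 0.310).

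Assembly chaperones were among the members of lower level. None of the 7 had knockout libraries wholly above or below WT (24.3% of all tested genes lay above and 21.7% below), and log2 fold changes ran from −0.05 to 0.14. Psmd5, a chaperone of the 19S base and the most abundant of them, measured 86.0 and 98.2 FPKM in knockout and 78.3 and 88.8 FPKM in WT (0.14, SE 0.11, adjusted p = 0.604). Psmd9, also a base chaperone, measured 19.4 and 15.9 FPKM in knockout and 15.4 and 16.75 FPKM in WT (0.12, SE 0.15, adjusted p = 0.774). In GENCODE release M21 exons of Gm26745 on the opposite strand cover 25.5% of Psmd9. Psmg1 to Psmg4, which build the alpha ring in pairs, had means of 20.6 to 34.7 FPKM.

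Over the whole family, 0 of 46 members passed the limma test in either direction, where 3.33% of all tested genes passed (2.4% higher and 0.939% lower in knockout). The smallest adjusted p was 0.147. At an unadjusted p under 0.05, 10 members were higher in knockout (21.7%, against 8.97% of all genes) and 0 lower (against 6.52%), where 15.5% of all genes had such a p in either direction. These were Psma4, Psma7, Psmb2, Psmb6, Psmc1, Psmc4, Psmd6, Psmd7, Psmd12 and Psme1, of which Psma7, Psmc4 and Psmd12 are named after their values were seen. That count rested on the libraries and processing used, though leaving out knockout replicate 1 did not lower it. It was 2 without knockout replicate 2 (4.35%, against 7.76% of all genes) and 1 without WT replicate 1 (2.17%, against 6.29%), so that the members lay below the share of all genes there. It was 4 without WT replicate 3 (8.7%, against 7.0%), 3 with quantile normalization (6.52%, against 7.61%) and 0 without the mean-variance trend (against 7.28%). It was 5 after rescaling without haemoglobin and mitochondrial genes (10.9%, against 7.89%) and 6 with no filter (13%, against 6.02%). The count stayed at 10 with a pseudocount of 0.1 (21.7%, against 8.92%) or 5 (21.7%, against 8.96%). With the filter at a mean of 5 FPKM it was 10 of 45 (22.2%, against 9.27%). With FPKM scaled to the same total in each library it was 8 (17.4%, against 8.62%). Both knockout libraries lay above both WT libraries for 22 members (47.8%, against 24.3% of all genes) and below for 4 (8.7%, against 21.7%). Log2 fold changes were positive for 34 of 46 members (50.5% of all genes), with a median of 0.12, against 0.00 over all genes. Their 95% intervals lay between 0.658-fold, the lower end for Psme4, and 1.46-fold, the upper end for Psmd6. Genes of one complex are not independent replicates of the comparison.

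**Figure D3:**
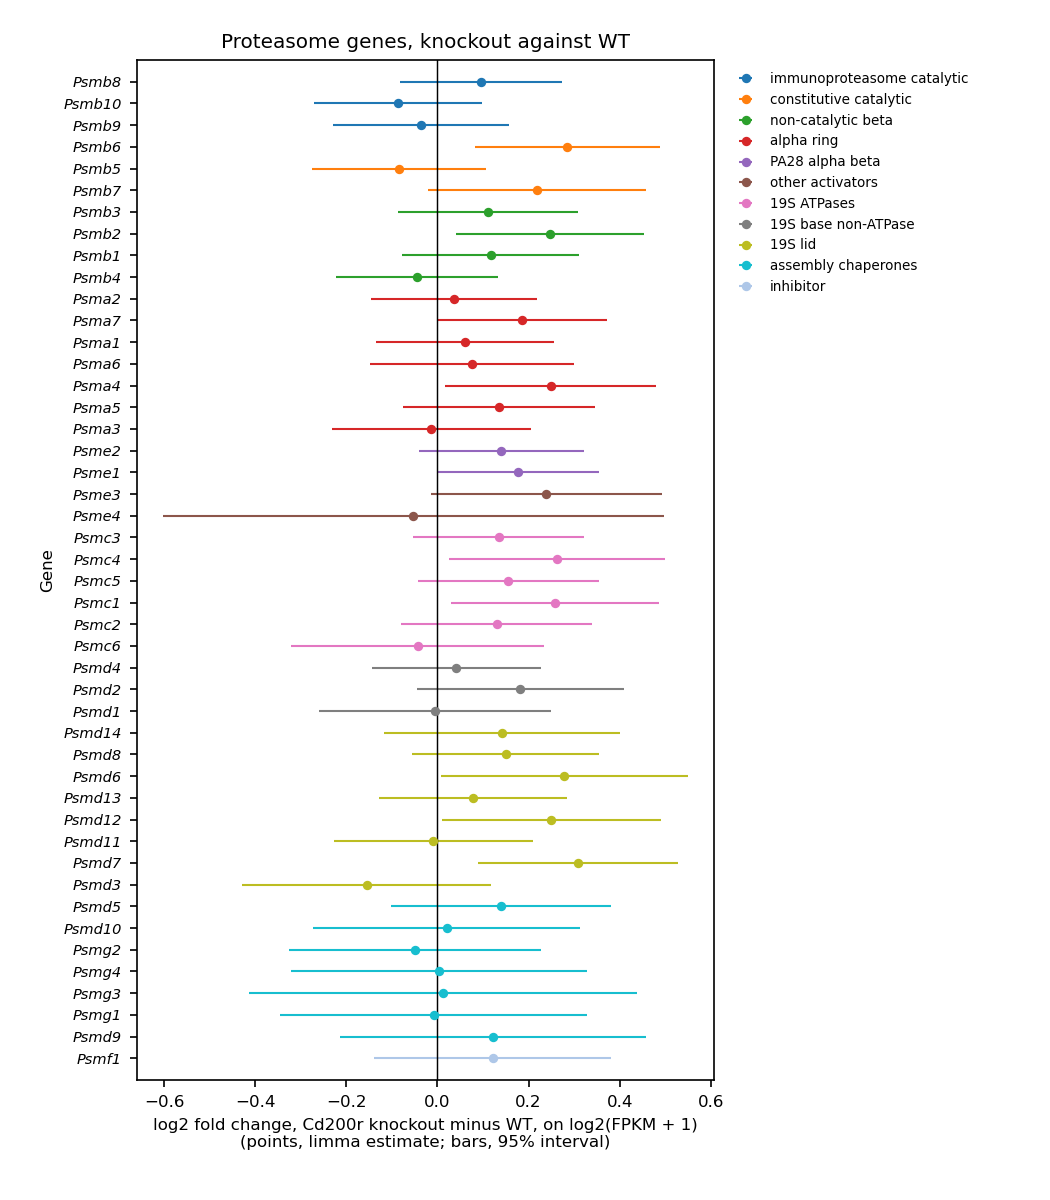
Log2 fold change of each proteasome gene, Cd200r knockout minus WT on log2(FPKM + 1), with the 95% interval from limma, coloured by role. Estimates run from −0.16 (Psmd3) to 0.31 (Psmd7), 34 of 46 lie above 0, and none passed after adjustment over all tested genes.

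The family varied between the knockout libraries. Knockout replicate 2 was above knockout replicate 1 for 30 of 46 members (65.2%, against 49.3% of all genes) and was the highest of the 4 libraries for 25 (54.3%, against 29.9%). Without knockout replicate 1, limma called 4 members higher, where 3.7% of all genes were called higher: Psmb2 (log2 fold change 0.36), Psmb6 (0.38), Psmc4 (0.41) and Psmd6 (0.46), with the single knockout library left assumed to vary like WT. Psmc4, a 19S ATPase, measured 168 and 205 FPKM in knockout and 151 and 158 FPKM in WT. The median log2 fold change of all members was 0.17 without knockout replicate 1 and 0.07 without knockout replicate 2. Knockout replicate 2 also had the highest summed level of the macrophage list (955 FPKM, against 641 in knockout replicate 1) and of the conventional NK list (665 against 309.5); the summed level of mitochondrially encoded genes was highest there too (15140 against 12830). The part of these cells and of RNA quality in the values of the proteasome genes was not tested. As a share of all FPKM the members made up 1.61% and 1.68% in knockout and 1.52% and 1.54% in WT. In the same libraries erythroid transcripts were lower in knockout. After rescaling without haemoglobin and mitochondrial genes the median log2 fold change of the members was 0.0936, against −0.0205 over all genes. With quantile normalization the member median was 0.0556, against −0.0174 over all genes.

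Genes that act with the proteasome likewise gave 0 limma calls after adjustment in 58 genes on 8 lists, of which Ddi2 stands on 2. At an unadjusted p under 0.05, 7 of them (12.1%) differed, Pomp, Uchl5 and 5 interferon-gamma signalling genes. Neither count was above that of all tested genes, of which 3.33% passed after adjustment and 15.5% had such an unadjusted p. Pomp, which matures the 20S core, measured 318 and 356 FPKM in knockout and 281 and 296 FPKM in WT, without overlap (log2 change 0.22, SE 0.09, adjusted p = 0.262). Adrm1, a ubiquitin receptor of the 19S particle, measured 97.8 and 98.1 FPKM in knockout and 81.3 and 88.9 FPKM in WT (0.20, SE 0.10, adjusted p = 0.353). Uchl5, the deubiquitinase held by Adrm1, measured 47.4 and 46.5 FPKM in knockout and 34.6 and 39.5 FPKM in WT, without overlap (0.34, SE 0.12, limma adjusted p = 0.179). Pomp and Uchl5 had the smallest p of their lists. Next after Uchl5, Zfand5 had 0.25 (SE 0.16, adjusted p = 0.505).

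Ubiquitin genes and the unfoldase Vcp also stayed on the same side of the threshold. Ubb, a polyubiquitin gene, measured 3829 and 4490 FPKM in knockout and 3320 and 3874 FPKM in WT, with overlap (log2 change 0.21, SE 0.10, adjusted p = 0.359). In the Vcp list Faf2 had −0.15 (SE 0.16) and Vcp −0.08 (SE 0.09). Nfe2l1, which encodes NRF1, the factor that raises proteasome genes when activity is short, measured 4.73 and 2.33 FPKM in knockout and 6.90 and 4.20 FPKM in WT (−0.55, SE 0.29, adjusted p = 0.405), with overlap. Its processing enzyme Ddi2 measured 0.968 and 1.44 FPKM in knockout and 1.77 and 1.53 FPKM in WT. Of the cytosolic peptidases Thop1 had 0.49 (SE 0.23, adjusted p = 0.340) and Lap3 0.31 (SE 0.20, adjusted p = 0.504).

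Genes of MHC class I peptide transport and loading, listed together with the regulator Nlrc5, had mostly small negative estimates. Of 10 tested, 9 had a negative log2 fold change, with a median of −0.09, where 50.5% of all tested genes were positive. Limma gave 0 calls, at an unadjusted p under 0.05 too (3.33% and 15.5% of all genes). Without knockout replicate 2 the count of negative estimates was 5 of 10, with Tap1, Tap2, Tapbpl and B2m just above 0. Tap1, which shares the printed stretch with Psmb9, measured 104 and 86.8 FPKM in knockout and 99.1 and 103 FPKM in WT, with overlap (−0.08, SE 0.11, adjusted p = 0.788); it is named for its place beside Psmb9. Tapbp, which encodes tapasin, measured 290 and 255 FPKM in knockout and 307 and 313 FPKM in WT, without overlap (−0.19, SE 0.09, adjusted p = 0.348). Nlrc5, the activator of MHC class I genes, measured 12.2 and 9.15 FPKM in knockout and 15.8 and 11.2 FPKM in WT, with overlap (−0.31, SE 0.20, adjusted p = 0.514). B2m, the light chain of MHC class I and named after its values were seen, measured 10510 and 10050 FPKM in knockout and 10610 and 10270 FPKM in WT (−0.02, SE 0.08, adjusted p = 0.927), but was called higher with quantile normalization (0.32, adjusted p = 0.0101).

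Some interferon-gamma signalling genes lay closer to the threshold than any proteasome member. Of 11 tested, 4 were higher and 1 lower at an unadjusted p under 0.05 (8.97% and 6.52% of all genes), and 0 passed after adjustment (3.33% of all genes). Irf1, which encodes an interferon-induced factor that switches on Psmb9 and Tap1, measured 179 and 170 FPKM in knockout and 232 and 212 FPKM in WT (log2 change −0.34, SE 0.09, limma adjusted p = 0.0728). Socs1, an inhibitor of the receptor kinases, measured 119 and 114 FPKM in knockout and 89.6 and 91.9 FPKM in WT (0.35, SE 0.09, limma adjusted p = 0.0723). In neither did the genotypes overlap. Irf1 passed with quantile normalization (−0.41, adjusted p = 0.0396) and without knockout replicate 1 (−0.38, adjusted p = 0.0413). Without knockout replicate 1 limma also called Ifngr1 (0.49, adjusted p = 0.00726), a chain of the interferon-gamma receptor, and Irf8 (0.53, adjusted p = 0.0148), both named after their values were seen. Ifngr1 measured 448.5 and 539 FPKM in knockout and 367 and 402 FPKM in WT. Ifng itself, chosen here as the cytokine of this pathway after its values were seen, measured 383 and 381 FPKM in knockout and 371 and 396 FPKM in WT.

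**Figure D4:**
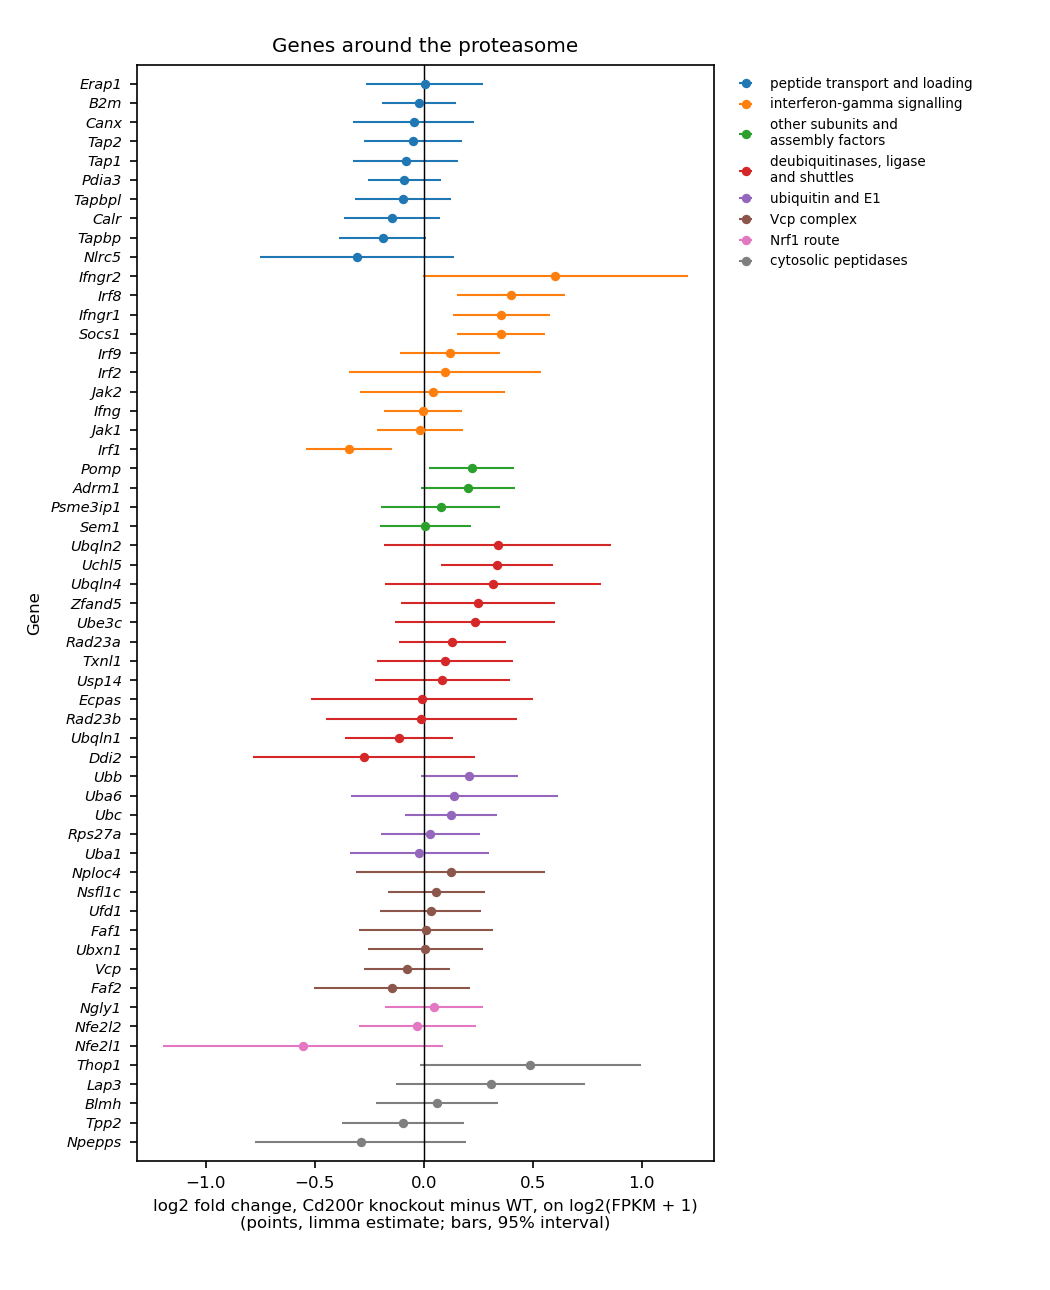
Log2 fold change, Cd200r knockout minus WT on log2(FPKM + 1), with the 95% interval from limma, for genes that act with the proteasome, in MHC class I loading and in interferon-gamma signalling. Peptide transport and loading genes lie mostly below 0, with a median of −0.09, and Irf1 (−0.34) and Socs1 (0.35) lie on opposite sides of it.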

How the data were processed

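Gene expression of liver ILC1s was measured by RNA-seq in 4 libraries. Per the labels' protocols, TRIzol RNA was amplified as full-length cDNA by a kit meant for single cells, and libraries were made with a transposase kit, which does not mark strand. The authors deposited FPKM values, with no read counts. Per the submitters' processing notes, fastp, HISAT2, HTSeq, DESeq2 and R 3.2.0 were used with build mm10, and no role, order, filter or treatment of multi-mapped reads is given.

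Values were analysed as log2(FPKM + 1) for genes averaging 1 FPKM or more, with limma 3.58.1 (mean-variance trend, no covariate) in R 4.3.3; the pseudocount understates changes of low genes. The code was tested on simulated data. Fold changes are knockout over WT. Depth was inferred from single-exon genes, of whose low values 69.6% to 74.8% were within 0.05 of a whole read. The members, gene lists, motifs and tests were chosen with earlier results of these data known. Named members were the subunits of the 3 exchange pairs, Psme1 and Psme2, and by rule the highest, lowest and smallest-p member of each class and the 3 largest changes each way; related lists gave up to 2 genes with the smallest p. Promoter windows came from RefSeq (GRCm38.p6). Alternatives covered pseudocount, filter, scaling, trend and leaving out each library. Some related genes are counted in their lists and not reported singly here.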

Additional observations from a re-analysis of the deposited data

How the results depend on the processing

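With no filter limma called 0 of all genes and without the mean-variance trend 70, against 316; leaving out 1 library gave 256 to 574. Members called higher ranged from 0 to 4 over the libraries left out, the 4 arising without knockout replicate 1, and were 0 in each other alternative; 0 were called lower in any. The median log2 fold change of the interferon-inducible subunits was 0.034 with quantile normalization and 0.0698 after rescaling that left out haemoglobin and mitochondrial genes (0.0426 to 0.15 over libraries left out), and that of the constitutive catalytic subunits was 0.19 with quantile normalization (0.17 to 0.27). The median of the 19S subunits was 0.071 with quantile normalization, and 0.10 to 0.16 over libraries left out. The median over all genes moved too, to −0.0174 with quantile normalization and −0.0205 after that rescaling. The difference in mean log2 between immunoproteasome and constitutive catalytic subunits stayed negative, from −0.18 to −0.11 over libraries left out. With quantile normalization Psma2 had −0.0177 and Psmd4 −0.0183. Among genes named by rule, the sign also turned over libraries left out for Psma2 (−0.0179 to 0.0919), Psma3 (−0.0451 to 0.0183), Psmb9 (−0.0922 to 0.0208), Psmc6 (−0.18 to 0.10), Psmd1 (−0.085 to 0.073), Psmd4 (−0.0056 to 0.0879), Psmd9 (−0.0131 to 0.26), Psmd14 (−0.0204 to 0.30), Psme4 (−0.28 to 0.18) and Faf2 (−0.31 to 0.0164). Members not named by rule whose sign turned were Psma1 (−0.0035 to 0.125), Psma6 (−0.0297 to 0.18), Psmd10, Psmd11 and Psmg1 to Psmg4. The causes were not tested. The alternatives for the median of all members were chosen after seeing the data. No paired analysis was possible because the groups share only replicate number 1. With 2 libraries a group, the intervals printed bound what could be resolved.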
